A study of Homo sapiens with 12 samples.

Results

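Long non-coding RNA (lncRNA) genes of HepG2 cells were taken by name and level: symbols that begin with LINC or SNHG or end in -AS1, together with MALAT1 and NEAT1, with a mean of at least 1 CPM over the 12 libraries. CPM, a gene's count over its library's total scaled to a common depth, is the level used throughout. Of 47634 gene IDs per library, 3693 had a symbol of this pattern. Of these, 2309 had 0 counts in every library, 1040 were counted but stayed under the threshold, and 344 genes were kept. They comprise 213 -AS1 genes, 109 LINC genes, 20 SNHG genes, MALAT1 and NEAT1. Members were chosen by their symbol and by their mean CPM in these same libraries, so that mean is not a finding. Just inside the threshold lay MYLK-AS1, ZNF436-AS1 and EPHA1-AS1, each at a mean of 1.0 CPM, and just outside it LINC02976 at 0.995 CPM, LINC02323 at 0.989 CPM and PAN3-AS1 at 0.989 CPM. The GENCODE 29 gene types fitted the label for most: 161 antisense, 113 lincRNA and 51 processed transcripts, against 4 protein-coding genes. Other lncRNA genes with other kinds of names (CYTOR or LUCAT1, for example) are not among the 344.

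HepG2 is a line from a human hepatocellular carcinoma. ATP7B is the gene of Wilson disease, and its product moves copper out of hepatocytes. The title of the study concerns autophagy as a means of cell survival in that disease. The 4 groups of 3 libraries were wild type HepG2 untreated, wild type HepG2 given copper (Cu) for 24 h, ATP7B knockout (KO) HepG2 untreated, and ATP7B KO HepG2 given copper for 24 h. The labels call the libraries biological replicates, name 1 KO line, and give neither a copper dose nor the position of the edit. Without word of separate cultures, p-values measure the spread between these libraries.

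An lncRNA is transcribed like an mRNA but not translated into a known protein. MALAT1 is retained in nuclear speckles, bodies rich in splicing factors. NEAT1 is the scaffold of paraspeckles, which hold the RNA-binding proteins SFPQ and NONO and enlarge under several kinds of stress. SNHG genes host small nucleolar RNAs (snoRNAs) in their introns, and their spliced exons are often short-lived. LINC genes lie between other genes, and -AS1 genes are named after a gene on the opposite strand. The mature 3′ ends of MALAT1 and of the long NEAT1 isoform are not polyadenylated, and which ends the poly(A)-primed reads came from was not tested.

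Promoters of members whose level rose with copper in both lines are shown first, because these genes moved together. RefSeq (GRCh38.p14) gave a promoter of 300 bases, 250 before and 50 after the annotated start, for 256 of the 343 distinct symbols. NEAT1 and DNMT3L-AS1 had no entry. Capitals mark matches, on either strand, to TGCNCNC (the metal response element core) or TGANNNNGC (the antioxidant response element core). In MALAT1 the first capital run holds one of each, overlapping, and the second is TGANNNNGC. Both runs of LINC00324 are TGANNNNGC and that of TTLL1-AS1 is TGCNCNC. LINC02365 holds no match and is shown beside them.
MALAT1 promoter, chr11:65497488-65497787, plus strand: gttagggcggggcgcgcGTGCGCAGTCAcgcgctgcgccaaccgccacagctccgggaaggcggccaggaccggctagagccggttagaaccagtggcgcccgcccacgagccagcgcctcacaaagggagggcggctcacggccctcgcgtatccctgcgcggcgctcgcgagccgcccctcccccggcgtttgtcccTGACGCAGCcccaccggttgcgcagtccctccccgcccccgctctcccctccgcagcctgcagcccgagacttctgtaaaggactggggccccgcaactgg
LINC00324 promoter, chr17:8223994-8224293, minus strand: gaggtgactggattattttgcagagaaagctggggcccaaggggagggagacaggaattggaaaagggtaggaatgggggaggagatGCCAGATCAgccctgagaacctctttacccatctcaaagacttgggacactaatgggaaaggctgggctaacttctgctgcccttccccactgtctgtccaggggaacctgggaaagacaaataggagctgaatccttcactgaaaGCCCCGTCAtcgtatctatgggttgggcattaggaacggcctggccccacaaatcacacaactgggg
TTLL1-AS1 promoter, chr22:43038335-43038634, plus strand: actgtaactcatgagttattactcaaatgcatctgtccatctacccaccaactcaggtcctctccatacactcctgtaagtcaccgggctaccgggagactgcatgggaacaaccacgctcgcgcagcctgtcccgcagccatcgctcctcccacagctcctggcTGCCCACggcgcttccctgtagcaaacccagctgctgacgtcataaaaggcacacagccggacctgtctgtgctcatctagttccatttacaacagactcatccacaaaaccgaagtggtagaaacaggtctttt
LINC02365 promoter, chr4:184624823-184625122, minus strand: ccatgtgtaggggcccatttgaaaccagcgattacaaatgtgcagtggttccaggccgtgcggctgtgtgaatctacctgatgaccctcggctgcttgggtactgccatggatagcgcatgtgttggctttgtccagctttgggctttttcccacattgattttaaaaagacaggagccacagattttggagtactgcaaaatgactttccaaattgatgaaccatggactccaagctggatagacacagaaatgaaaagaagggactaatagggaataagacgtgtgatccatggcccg

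TGCNCNC stood in 58.6% of the 256 members' promoters and in 55.2% of 27305 promoters of this length. TGANNNNGC stood in 48.4% of the members' promoters and in 42.1% of those 27305. GAANNTTC (a heat shock element) stood in 4.30% of the members' against 6.87%, and TGANTCA (AP-1) in 5.47% against 7.76%. Of the 13 members that rose with copper in both lines, 8 had a promoter entry, and 4 of these held TGCNCNC, 4 TGANNNNGC, 1 TGANTCA and none GAANNTTC. A match of these letters is a description of the window, not a site shown to be bound.

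The starts of 4 SNHG genes are shown because they carry the pyrimidine run that opens most ribosomal protein genes, whose share of counts differed between the libraries. Each line gives 10 bases before and 30 bases from the annotated start, and capitals mark an unbroken run of C and T that begins with a C at the start and is at least 5 bases long.
SNHG12 start, chr1:28581844-28581883, minus strand: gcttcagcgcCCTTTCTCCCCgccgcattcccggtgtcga
SNHG19 start, chr16:2155329-2155368, minus strand: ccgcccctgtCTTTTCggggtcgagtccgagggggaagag
SNHG32 start, chr6:31834906-31834945, plus strand: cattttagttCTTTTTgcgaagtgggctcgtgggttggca
SNHG5 start, chr6:85678704-85678743, minus strand: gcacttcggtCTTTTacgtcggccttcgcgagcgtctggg

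Such a run opened 4 of 17 SNHG genes with an entry (23.5%), 39 of 63 cytosolic ribosomal protein genes (61.9%) and 4.04% of the 27305 promoters. This feature was looked for after the values had been seen.

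Library totals ran from 976658 to 3829151 counts, so that 3 counts equal 0.783 to 3.07 CPM. Counting intervals and floors given below cover counting error only, since the reads carry no molecular identifiers. Wild type copper replicate 1 and KO untreated replicates 1 and 2 stood apart, and values without these 3 libraries are given beside the results that rest on them. KO untreated then keeps 1 library, assumed to vary like the other groups. Yet the lowest r between its replicates was 0.798, against 0.910 in any other group (below). That spread does not enter adjusted p-values and calls without the 3 libraries. A call in that fit therefore does not show that a result held. Ribosomal protein genes took 5.75% and 4.99% of the counts in those KO libraries and 8.89% to 13.5% in the other 10. Across genes, KO untreated replicate 3 correlated with replicates 1 and 2 at r = 0.824 and 0.798 on the log2 scale. Replicates 1 and 2 correlated with each other at 0.927, so by this measure replicate 3 was the one apart within its group. Which of these libraries is typical of untreated KO cells was not tested. The lowest r between replicates of another group was 0.910, between wild type copper replicates 1 and 3. ATP7B itself, counted by 3′ reads that do not check the edit, was at 12.4 to 13.1 CPM in wild type untreated, 3.87 to 5.34 in wild type copper, 2.05 to 11.6 in KO untreated and 3.92 to 6.77 in KO copper, so its transcript was still counted in the KO line. The summed level of 12 hepatocyte markers was 29494 to 29859 CPM, 12631 to 14201, 11121 to 15972 and 5399 to 5520 CPM in the same order of groups, with none at 0. That of 13 markers of leukocytes, endothelium, fibroblasts and bile ducts was 1401 to 1524, 344 to 882, 263 to 539 and 212 to 292 CPM, nearly all of it LYZ, with 2 to 6 of the 13 at 0 per library. The part of either list in the results below was not tested. In these bulk samples fewer cells that make an RNA and less of it per cell cannot be told apart.

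Together the 344 lncRNA genes took 0.642% to 0.682% of a library's counts in wild type untreated, 0.923% to 1.32% in wild type copper, 0.878% to 1.67% in KO untreated and 1.79% to 2.18% in KO copper. The share of counts on mitochondrial genes was 2.97% to 3.80%, 6.58% to 8.59%, 5.82% to 8.85% and 8.34% to 9.46% in the same groups, and in each group but KO copper it was highest in the library with the most MALAT1. Its part in the lncRNA results was not tested. MALAT1 and NEAT1 made most of the difference in the members' share. Their sum was 1248 to 1466 CPM in wild type untreated, 3862 to 8148 in wild type copper, 2661 to 9865 in KO untreated and 13271 to 17133 CPM in KO copper. The SNHG genes summed to between 2684 and 4033 CPM over the 12 libraries, the LINC genes to between 523 and 842, and the -AS1 genes to between 1295 and 1981. Levels were uneven: 11 members had a mean of at least 100 CPM, 66 of at least 10 and 109 of at least 5. The 10 highest by mean were MALAT1 (5616 CPM), NEAT1 (1152), SNHG29 (779), SNHG25 (571), SNHG5 (495), SNHG1 (490), SNHG19 (180), SNHG16 (179), FGD5-AS1 (148) and SNHG14 (115). Reads near the 3′ end need no length correction, so these are levels per transcript end, except for MALAT1 and NEAT1. Which ends the reads of MALAT1 and NEAT1 came from was not tested, so their levels may not compare with the others on that scale.

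Differences were tested on counts with edgeR over the 11051 genes that passed its filter, with p-values adjusted over all of them. An adjusted p under 0.05 is a call, and rose, fell, higher and lower below refer to calls. Of the 344 lncRNA genes, 187 were tested. The other 157 had too few counts in too many libraries, with means of at most 3.96 CPM. Some of the 187 passed the filter only through the group in which they are high, so their counts describe the tested genes and support nothing further. Of the 187, 105 were called in at least 1 of the 5 comparisons and 82 in none. The same share of all genes tested is not given, so this count is no result about lncRNA genes. Comparisons that share a group share its libraries, as copper in wild type and KO against wild type untreated share untreated wild type, so their values are set side by side only.

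In untreated wild type cells MALAT1 had 1043, 1002 and 1169 CPM (replicates 1, 2 and 3, an order kept below), and in wild type copper 3052, 6411 and 4526 CPM. The untreated KO libraries had 2399, 8124 and 2825 CPM of MALAT1, the KO copper libraries 11292, 11140 and 14405 CPM. The copper libraries of a line lay above its untreated ones, as for 21.3% of all genes tested in wild type and 19.1% in KO. MALAT1 rose with copper in wild type cells by 2.14 ± 0.44 (log2 fold change ± SE, adjusted p = 0.0079) and in KO cells by 1.56 ± 0.44 (adjusted p = 0.017). These were 2.41 and 2.3 without the 3 libraries that stand apart. The KO call ended without KO untreated replicate 1, without KO copper replicate 3 and with the compared groups alone in the fit, the adjusted p then reaching at most 0.086. Untreated KO cells were above untreated wild type by 1.95 ± 0.44 (adjusted p = 0.0069), or by 1.2 without the 3 libraries. In copper, KO was above wild type by 1.37 ± 0.43, which missed the threshold (adjusted p = 0.054), and by 1.08 without the 3 libraries. The copper effects of the lines differed by -0.59 ± 0.60 (adjusted p = 0.50).

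NEAT1 stood at 270, 246 and 297 CPM in wild type untreated libraries and reached 810, 1737 and 1065 CPM in wild type copper. Untreated KO libraries had 263, 1742 and 531 CPM of NEAT1, and those with copper 2002, 2131 and 2728 CPM. KO untreated replicate 2 was as high as the highest wild type copper library, and replicate 1 lay within the wild type untreated range. NEAT1 rose with copper by 2.17 ± 0.55 in wild type (adjusted p = 0.021) and by 1.53 ± 0.54 in KO cells (adjusted p = 0.046). The wild type call was lost on leaving out wild type untreated replicate 1, 2 or 3, or wild type copper replicate 2 (adjusted p up to 0.087). The KO call was lost on leaving out any single library except wild type copper replicate 1 or KO untreated replicate 2. Its adjusted p then reached 0.15 at most. Without the 3 libraries that stand apart its log2 fold change was 2.28. KO against wild type untreated was 1.54 ± 0.54 (adjusted p = 0.047) with overlapping libraries, and 0.77 with an adjusted p of 0.090 without those 3. That call also ended in 9 of the 12 fits that left out a library, with voom, with the compared groups alone and with the replicate block, the adjusted p reaching 0.389. In copper the lines differed by 0.90 ± 0.53 (adjusted p = 0.29).

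**Figure D1:**
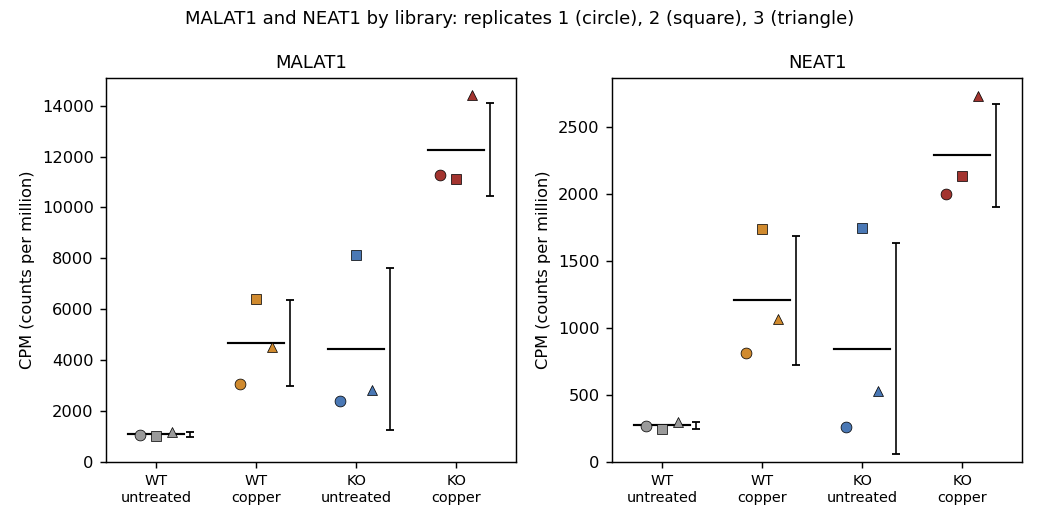
CPM (vertical axis) of MALAT1 and NEAT1 in each library of the 4 groups, with the group mean (line) and SD (bar at the side, n = 3). For both genes the 3 KO copper libraries are the highest of the 12, and KO untreated replicate 2 (square) lies far above the other 2 of its group.

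With copper, 25 of 187 tested lncRNA genes rose in wild type cells (13.4%, against 8.23% of all genes tested) and 7 fell (3.74%, against 6.68%), so that 17.1% were called in either direction, against 14.9% of all genes. Their median log2 fold change was 0.23 (0.22 with genes at 0 in a group put at their bound), that of all genes -0.03. The genes that rose were 10 of 55 tested LINC genes, 11 of 112 -AS1 genes, SNHG9 and SNHG20 of 18 SNHG genes, and MALAT1 and NEAT1. With the 3 libraries that stand apart left out, 60 of 249 tested members rose and 25 fell (24.1% and 10%, against 20.4% and 19.6% of all genes). Leaving out KO untreated replicate 3 gave 46 higher and 16 lower, and leaving out wild type untreated replicate 2 gave 14 and 2. The lower count was 4 or fewer without any 1 of 7 libraries (the 6 wild type ones and KO copper replicate 2). It was 13 without KO untreated replicate 1. Fits that left out 1 library tested 209 to 220 members. The share of all genes called in them is not given, so these counts show only how calls depend on single libraries.

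Several of these genes were near 0 in untreated wild type cells. TTLL1-AS1, named after a tubulin polyglutamylase gene, had 0 counts in the 3 untreated libraries and 4.80, 2.61 and 2.71 CPM in copper, at least 12.1-fold higher against a floor of 3 counts over the untreated group (adjusted p = 0.0030). LINC01554 had 1 count in untreated cells and 4.80, 2.61 and 3.87 CPM in copper, a ratio of 41.4 with a 95% counting interval of 6.78 to 1701 (adjusted p = 0.0067). LINC00641 went from 0.791, 0.783 and 0.562 CPM to 15.5, 15.3 and 5.03 CPM (3.98 ± 0.81, adjusted p = 0.0073), and ACTR3-AS1 from 0.281 to 0.783 CPM to 5.81 to 8.71 CPM (3.61 ± 0.64, adjusted p = 0.0034). LINC02365 had 0.791, 0.783 and 0.562 CPM before and 6.40, 6.54 and 5.81 CPM with copper (3.07 ± 0.40, adjusted p = 0.00052). NHSL1-AS1 rose from 1.32 to 3.66 CPM to 15.1 to 22.4 CPM (2.93 ± 0.38), LINC00324 from 0.527 to 1.83 CPM to 5.23 to 7.36 CPM (2.58 ± 0.48), and BCAN-AS1 from 5.48 to 10.1 CPM to 37.2 to 49.6 CPM (2.53 ± 0.46). For these 8 the 3 copper libraries lay above the 3 untreated ones, which is how named members were picked (21.3% of all genes tested did so). These calls held in every alternative fit run for them.

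Of the tested members, 7 fell with copper in wild type cells. DNMT3L-AS1, named after a regulator of DNA methylation, dropped from 23.5, 23.5 and 27.0 CPM to 3.74, 3.05 and 2.71 CPM (-2.93 ± 0.25, adjusted p = 3.25e-05). LINC00261 went from 75.7, 83.0 and 67.7 CPM to 29.9, 34.9 and 42.6 CPM (-1.05 ± 0.19, adjusted p = 0.0043). In RefSeq order it neighbours FOXA2, a transcription factor gene of the hepatic lineage, which went from 222 to 234 CPM to 83.8 to 131 CPM (-1.04 ± 0.19, adjusted p = 0.0046); the neighbour was looked up after the values were seen. For DNMT3L-AS1 and LINC00261 the copper libraries lay below the untreated ones, again the way named members were picked (27.1% of all genes did so). Both calls held in every alternative fit. LINC01023 (-1.63), RAB11B-AS1 (-1.39), PRSS23-AS1 (-2.49), TBX2-AS1 (-1.26) and NPSR1-AS1 (-1.21) fell as well, but each of those calls ended in 4 or more of the 12 fits that left out a library, the adjusted p reaching 0.084 to 0.155.

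In KO cells 25 of 187 tested members rose with copper (13.4%, against 15.2% of all genes) and 29 fell (15.5%, against 18.5%), with a median log2 fold change of -0.12, against 0.01 for all genes. The genes that fell were 18 -AS1 genes, 9 LINC genes, SNHG5 and SNHG19. On leaving out the 3 libraries that stand apart, 45 of 249 rose and 44 fell (18.1% and 17.7%, against 19.1% and 20.5%). Without KO untreated replicate 3 alone, 49 of 214 tested members rose and 55 fell, with the share of all genes in that fit not given.

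LINC00839 had 0 counts in untreated KO cells and 5.34, 4.61 and 5.97 CPM in copper, at least 10.1-fold higher (adjusted p = 0.0032). TTLL1-AS1 had 1 count untreated and 8.19, 11.7 and 7.17 CPM in copper, a ratio of 51.0 with a counting interval of 8.85 to 2043 (adjusted p = 0.00089). LINC01882 rose from 0, 0 and 1.53 CPM to 19.9, 14.2 and 9.16 CPM (4.22 ± 0.72, adjusted p = 0.0012), and ZFPM2-AS1 from 0, 0 and 1.22 CPM to 11, 11.7 and 9.56 CPM (4.07 ± 0.60, adjusted p = 0.00050). These untreated levels are near the floor of 3 counts, which is 2.08 and 3.07 CPM in KO untreated replicates 1 and 2. LINC00324 rose from 3.46, 7.17 and 2.44 CPM to 27.8, 27.2 and 25.1 CPM (2.92 ± 0.42, adjusted p = 0.00043), and LINC02365 from 4.85, 10.2 and 11.3 CPM to 25.6, 28.9 and 26.7 CPM (1.72 ± 0.28, adjusted p = 0.00098). Ratios of pooled CPM were 17.4 (4.55 to 148) for LINC01970, 21.4 (3.55 to 875) for LINC01554 and 12.6 (3.22 to 108) for MYG1-AS1, each from 1 or 2 counts in untreated KO cells. Fitted log2 values were 3.82 ± 0.90 for LINC01610 and 2.97 ± 0.72 for LINC00871. The LINC00871 call ended without KO copper replicate 1 (adjusted p = 0.056). The calls of LINC00839, TTLL1-AS1, LINC01882, ZFPM2-AS1, LINC00324, LINC01970, LINC01554, MYG1-AS1 and LINC01610 held in every alternative fit run for them.

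DNMT3L-AS1 fell in KO cells too, from 22.9, 18.4 and 24.1 CPM to 1.78, 1.67 and 1.99 CPM (-3.44 ± 0.28, adjusted p = 8.09e-06). LINC00261 went from 64.4, 59.4 and 76.9 CPM to 24.9, 28.9 and 25.1 CPM (-1.23 ± 0.20, adjusted p = 0.00087), beside FOXA2 at -0.87 ± 0.20 (adjusted p = 0.0058). A further group fell to wild type levels after being higher in untreated KO cells: ELFN1-AS1 (-3.06 ± 0.58), CCDC86-AS1 (-2.82 ± 0.44), LINC00526 (-2.88 ± 0.62), LINC00667 (-2.17 ± 0.41) and WAC-AS1 (-2.12 ± 0.39). WAC-AS1 shows what these values rest on: it was at 133 and 139 CPM in KO untreated replicates 1 and 2, at 51.9 CPM in replicate 3, and at 20.7 to 39.3 CPM in the other 9 libraries. Leaving out the 3 libraries that stand apart put WAC-AS1 at -1.0 and LINC00667 at -0.76, while LINC00526 lost the call at -1.58. ELFN1-AS1 and CCDC86-AS1 were less moved, at -2.59 and -2.48.

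The copper comparisons of the lines share no library. Called higher in both were 13 members, which are 6.95% of the 187 tested and 52% of each line's list: MALAT1, NEAT1, THUMPD3-AS1, LINC00528, LINC02365, LINC00324, LINC-PINT (ENSG00000231721), ZFPM2-AS1, TTLL1-AS1, LINC01610, LINC01970, LINC01191 and LINC01554. Of all genes tested 4.41% were called higher in both lines, which is 53.5% of the wild type list and 29.1% of the KO list. The wild type call of LINC01970 ended in 9 of the 12 fits that left out a library and with the replicate block (adjusted p up to 0.138). LINC-PINT, described as a p53-induced transcript, has 2 IDs in the files, and ENSG00000231721 was at 4.44 to 6.46 CPM in wild type untreated, 10.5 to 15.7 in wild type copper, 0 to 2.14 in KO untreated and 4.78 to 9.26 CPM in KO copper. Called lower in both were LINC00261, TBX2-AS1, DNMT3L-AS1, RAB11B-AS1 and LINC01023, which are 2.67% of the 187, 71.4% of the wild type list and 17.2% of the KO list. Of all genes 3.31% were called lower in both, 49.6% of the wild type list and 17.9% of the KO list. The wild type calls of TBX2-AS1, RAB11B-AS1 and LINC01023 ended in 9, 4 and 6 of the 12 fits that left out a library. FRY-AS1 was called in opposite directions. It went from 5.27, 7.57 and 5.05 CPM to 16.5, 14.4 and 19 CPM in wild type (1.5 ± 0.41, adjusted p = 0.029) and from 5.54, 11.3 and 2.44 CPM to 1.42, 1.26 and 1.99 CPM in KO cells (-1.68 ± 0.58, adjusted p = 0.042). The KO fall of FRY-AS1 was -0.46 (adjusted p = 0.62) without the 3 libraries.

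**Figure D2:**
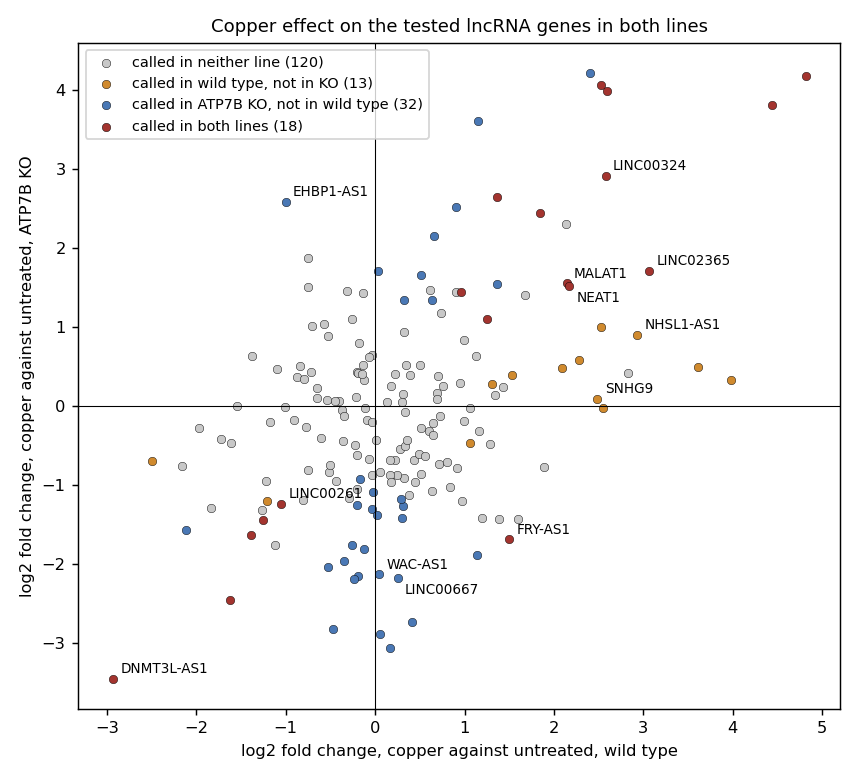
Log2 fold change with copper in wild type (horizontal axis) and in KO cells (vertical axis) for 183 tested lncRNA genes, coloured by whether edgeR called them; 4 more are not drawn because a group had 0 counts. MALAT1 (2.14 and 1.56) and NEAT1 (2.17 and 1.53) lie together at the upper right, DNMT3L-AS1 (-2.93 and -3.44) at the lower left.

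Between the untreated lines 47 of 187 tested members were higher in KO (25.1%, against 17.9% of all genes) and 18 lower (9.63%, against 14.0%), in all 34.8%, against 31.9% of all genes. The median log2 fold change was 0.08 (0.06 with genes at 0 put at their bound), against -0.02 for all genes. Once the 3 libraries that stand apart were left out, 38 of 249 were higher and 26 lower (15.3% and 10.4%, against 16.8% and 17.7%). Leaving out KO untreated replicate 3 gave 65 and 46 of 214 tested, with the share of all genes in that fit not given. The higher count was 31 without KO untreated replicate 1. The counts were 24 and 11 without wild type untreated replicate 1 and 30 and 10 without replicate 2. For these fits too the share of all genes is not given, so the counts show only how calls depend on single libraries.

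LINC01996 had 0 counts in all 6 wild type libraries. In untreated KO cells it was at 18.7, 21.5 and 6.41 CPM, at least 45.2-fold higher than in untreated wild type (adjusted p = 0.0012). In KO copper it was at 0.712, 0.837 and 0.796 CPM. It fell with copper by 4.06 ± 0.69 on the log2 scale (adjusted p = 0.0032), or by 2.80 without the 3 libraries. Its 6 counts in KO copper are at least 1.75-fold above the wild type floor, which was not a call (adjusted p = 0.154). The call between the untreated lines and the call for copper in KO held in every alternative fit. SMTNL2, a smoothelin-like protein gene next to it in RefSeq order, showed the same sequence of levels: at most 0.281 CPM in wild type, 10.4, 6.14 and 5.49 CPM in untreated KO, and at most 0.419 CPM (2 counts in all) in KO copper, a fall that was called (adjusted p = 0.0012). That neighbour was looked up after its values were seen.

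RNF157-AS1 had 2 counts in untreated wild type cells and 8.31, 6.14 and 3.97 CPM in untreated KO, a ratio of 30.4 with a counting interval of 7.74 to 262 (adjusted p = 0.0026). RNF157, a RING-type ubiquitin ligase gene and its namesake, was at 1.12 to 1.85 CPM in untreated wild type and at 297, 263 and 179 CPM in untreated KO (7.18 ± 0.51, adjusted p = 8.75e-06). HECW2-AS1 had 3 counts in untreated wild type and 9.70, 13.3 and 2.14 CPM in untreated KO, a ratio of 22.2 with an interval of 7.0 to 113 (adjusted p = 0.0033). LINC02365 was higher by 3.43 ± 0.39 (adjusted p = 0.00020), PAQR9-AS1 by 2.60 ± 0.52, SSTR5-AS1 by 2.57 ± 0.61 and ELFN1-AS1 by 2.52 ± 0.51, and these calls held in every alternative fit. LINC00641 (3.49), ZNF528-AS1 (3.08) and LINC00526 (2.35) lost the call without the 3 libraries, at 1.33, 2.32 and 1.03.

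Lower in untreated KO was LINC00957, at 17.1, 21.9 and 12.9 CPM in wild type and 2.08, 2.05 and 2.44 CPM in KO (-3.06 ± 0.47, adjusted p = 0.0011). It was also lower in KO copper than in wild type copper (1.78, 1.26 and 2.39 against 15.5, 5.66 and 6.58 CPM, -2.33 ± 0.48, adjusted p = 0.0080). LINC00938 was lower by -1.83 ± 0.34 untreated (adjusted p = 0.0030) and by -1.20 ± 0.32 in copper (adjusted p = 0.029). ELF3-AS1 (-2.91 ± 0.63) and TM4SF1-AS1 (-2.81 ± 0.61) were lower beside their namesakes, the epithelial transcription factor gene ELF3 (-1.87) and the membrane protein gene TM4SF1 (-2.34), which were called as well. PRSS23-AS1 (-2.93), LINC-PINT (ENSG00000231721, -2.14), SNHG7 (-1.78), LINC02609 (-1.72), DDN-AS1 (-1.68) and SOX9-AS1 (-1.67) each lost the call in at least 1 alternative, with adjusted p up to 0.051 to 0.13.

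In copper, 8 of 187 tested members were higher in KO than in wild type (4.28%, against 5.77% of all genes) and 20 lower (10.7%, against 8.03%). The median was -0.11, that of all genes 0.05. Leaving out the 3 libraries that stand apart gave 23 and 49 of 249 (9.24% and 19.7%, against 17.3% and 20.6%), and leaving out KO untreated replicate 3 alone 20 and 44. The lower count was 8 to 13 on leaving out any 1 of the 9 wild type or KO copper libraries. The higher count was 4 without wild type copper replicate 1 or KO copper replicate 3. It was 5 without KO copper replicate 1 and 13 without KO untreated replicate 2. Fits that left out 1 library tested 209 to 220 members. The share of all genes called in them is not given. These counts thus show only how calls depend on single libraries. LINC02365 was at 25.6 to 28.9 CPM in KO copper and 5.81 to 6.54 CPM in wild type copper (2.08 ± 0.29, adjusted p = 0.00082). LINC00324 was at 25.1 to 27.8 CPM and 5.23 to 7.36 CPM (2.0 ± 0.37, adjusted p = 0.0045). Both were higher with no overlap between the groups, which named members were picked for (26.4% of all genes did so). LINC00871 was at 9.62, 5.02 and 3.98 CPM against 1 count in wild type copper, a ratio of 42.9 with an interval of 7.35 to 1729 (adjusted p = 0.0059). LINC01882 was higher by 3.12 ± 0.62 (adjusted p = 0.0066). The calls of LINC00839 (2.75), HECW2-AS1 (3.26), EHBP1-AS1 (2.40) and DYNLRB2-AS1 (2.18) ended without 1 or another copper library, with adjusted p up to 0.059 to 0.12.

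FRY-AS1 was lowest relative to wild type, at 1.26 to 1.99 CPM against 14.4 to 19 CPM (-3.41 ± 0.51, adjusted p = 0.0012). NHSL1-AS1, at 2.51 to 3.19 CPM against 15.1 to 22.4 CPM, was lower by -2.80 ± 0.40 (adjusted p = 0.00093). NHSL1-AS1 was not called for copper in KO cells (0.90 ± 0.54, adjusted p = 0.21). The difference of its copper effects between the lines was not called either (-2.02 ± 0.69, adjusted p = 0.084), and was -2.47 without the 3 libraries. DLGAP1-AS1 (-1.79 ± 0.29), TRIM52-AS1 (-1.97 ± 0.40), LINC02481 (-1.95 ± 0.39) and SRP54-AS1 (-1.84 ± 0.37) were lower and held in every alternative fit. ACTR3-AS1 (-2.05), TM4SF1-AS1 (-1.82) and C10orf95-AS1 (-1.68) were lower, but those calls ended in 8 or 9 of the 12 fits that left out a library, with adjusted p up to 0.14, 0.16 and 0.18.

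The copper effect itself differed between the lines for 5 of 187 tested members (2.67%, against 4.93% of all genes). It was higher in KO for EHBP1-AS1 (0.535%, against 1.26%) and lower for FRY-AS1, LINC00667, SNHG9 and WAC-AS1 (2.14%, against 3.67%). EHBP1-AS1 had 3.16, 3.66 and 2.25 CPM in wild type untreated, 1.07, 0.871 and 2.32 CPM in wild type copper, and 0.693, 0 and 2.44 and then 7.48, 5.02 and 11.9 CPM in KO, a difference of copper effects of 3.59 ± 0.87 (adjusted p = 0.0418). None of these 5 calls held in every alternative. Each ended in 9 to 11 of the 12 fits that left out a library, with adjusted p up to 0.122. Leaving out KO untreated replicate 3 gave 31 higher and 62 lower of 214 tested instead, with the share of all genes in that fit not given.

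**Figure D3:**
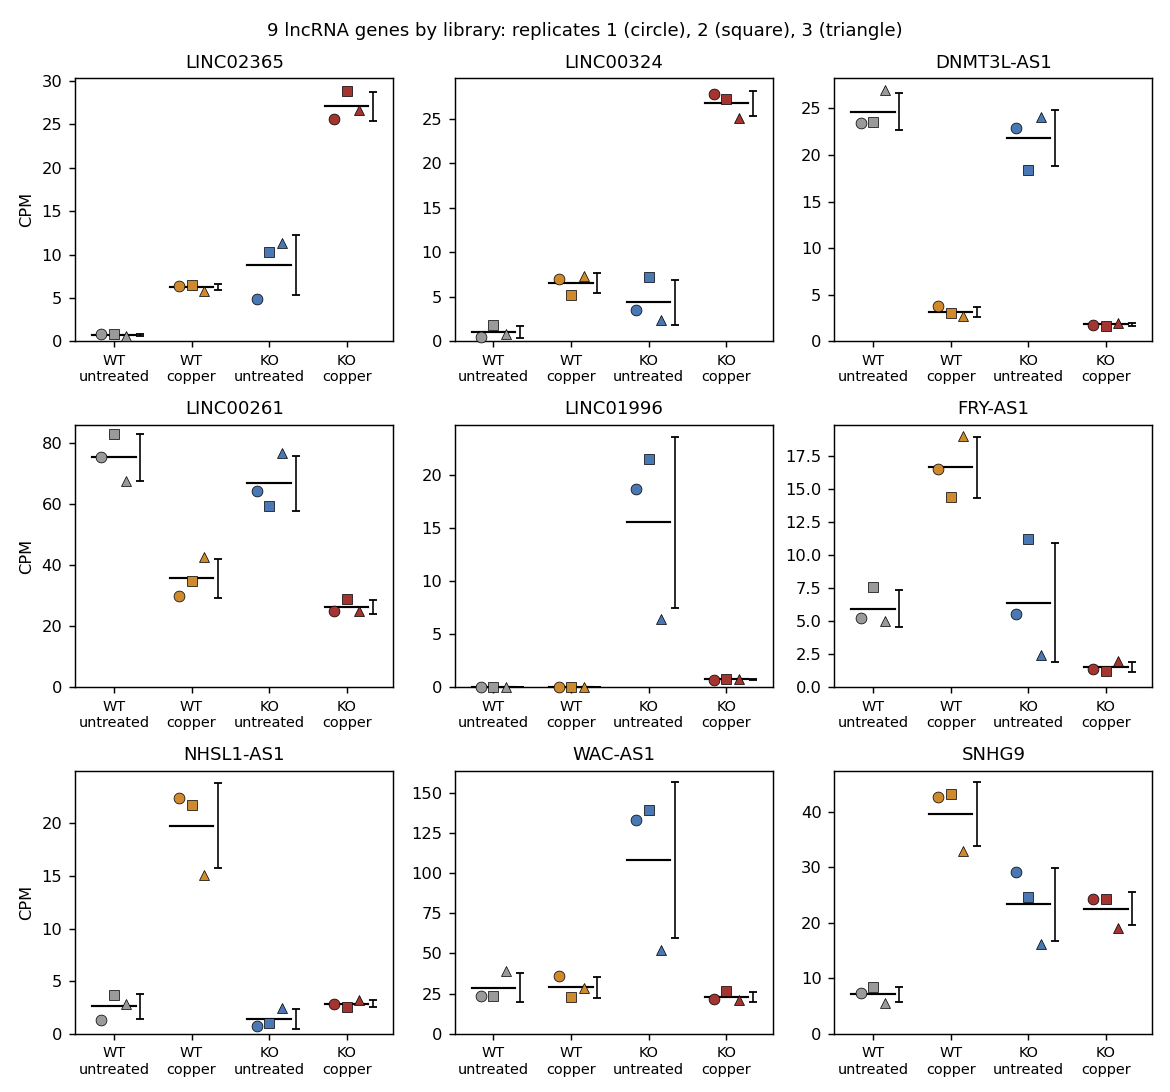
CPM (vertical axis) of 9 lncRNA genes in each library of the 4 groups, with the group mean (line) and SD (bar at the side, n = 3). LINC02365 and LINC00324 are highest in KO copper, DNMT3L-AS1 and LINC00261 are low in both copper groups, LINC01996 is at 0 in wild type, and WAC-AS1 is high in KO untreated replicates 1 and 2.

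Of the 20 SNHG genes 18 were tested, and 2 were called for copper in wild type and 2 in KO cells (11.1% each, against 14.9% and 33.7% of all genes). SNHG9 had 7.38, 8.36 and 5.62 CPM in wild type untreated, 42.7, 43.1 and 32.9 CPM in wild type copper, 29.1, 24.6 and 16.2 CPM in KO untreated and 24.2, 24.3 and 19.1 CPM in KO copper. It rose with copper in wild type (2.49 ± 0.29, adjusted p = 0.00027) and was higher in untreated KO than in untreated wild type (1.55 ± 0.30, adjusted p = 0.0033), and KO libraries with and without copper overlapped (0.10 ± 0.28, adjusted p = 0.81). SNHG20 was at 3.43, 3.92 and 6.46 CPM, then 40.0, 22.7 and 17.0, then 27.7, 42.0 and 8.85, then 15.7, 26.8 and 26.3 CPM. It rose with copper in wild type (2.54 ± 0.55, adjusted p = 0.0098, which was 0.052 at most without an untreated wild type library), and was higher in untreated KO by 2.31 (0.75 with an adjusted p of 0.16 without the 3 libraries).

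For the abundant SNHG genes the difference between the untreated lines went with KO untreated replicates 1 and 2. SNHG5 was at 1037 and 1090 CPM in these and at 413 CPM in replicate 3, against 344 to 377 CPM in untreated wild type. Its log2 fold change was 1.13 ± 0.32 (adjusted p = 0.020), and -0.01 without the 3 libraries. SNHG19 was at 436, 429 and 168 CPM against 156 to 180 CPM (0.96 ± 0.32, adjusted p = 0.037), and -0.17 without them. SNHG14, the long transcript of the imprinted Prader-Willi region, was at 214, 294 and 104 CPM against 68.9 to 85.9 CPM (1.30 ± 0.33, adjusted p = 0.013), and 0.24 without them. SNHG1 was called too, at 766, 966 and 458 CPM against 226 to 284 CPM (1.42 ± 0.27), and was at 0.66 without the 3 libraries.

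In the other direction SNHG29 was at 254, 239 and 811 CPM in KO untreated against 1119 to 1209 CPM in wild type (-1.57 ± 0.37, adjusted p = 0.0086). SNHG6 was at 30.5, 43.0 and 112 CPM against 136 to 162 CPM (-1.41 ± 0.39, adjusted p = 0.0185), and SNHG7 at 5.54, 6.14 and 22.6 CPM against 35.1 to 42.6 CPM (-1.78 ± 0.38, adjusted p = 0.0056). These 3 were at -0.72, -0.64 and -1.01 without the 3 libraries. Of the 20 SNHG genes, 8 were higher in both of replicates 1 and 2 than in replicate 3 and 9 were lower in both; of all 11051 tested genes these were 3759 and 5242. SNHG3, at 3.46, 2.05 and 25.6 CPM in KO untreated and 5.34 CPM in wild type copper replicate 1, was called in no comparison, and 28.9 to 39.2 CPM were counted in untreated wild type.

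With copper in KO cells SNHG5 (-1.26 ± 0.32, adjusted p = 0.011) and SNHG19 (-1.96 ± 0.33, adjusted p = 0.0011) fell. With the 3 libraries left out SNHG5 was at -0.14 and SNHG19 at -0.84. In copper, SNHG25 was lower in KO (362, 342 and 348 CPM) than in wild type (1042, 613 and 469 CPM), by -1.05 ± 0.29 (adjusted p = 0.033) or -0.71 without the 3 libraries. FGD5-AS1, the most abundant -AS1 gene, followed the SNHG5 pattern at 279, 339 and 175 CPM in KO untreated and 88.0 to 129 CPM in the other 9 libraries (1.08 ± 0.26 against wild type untreated, 0.40 without the 3 libraries).

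**Figure D4:**
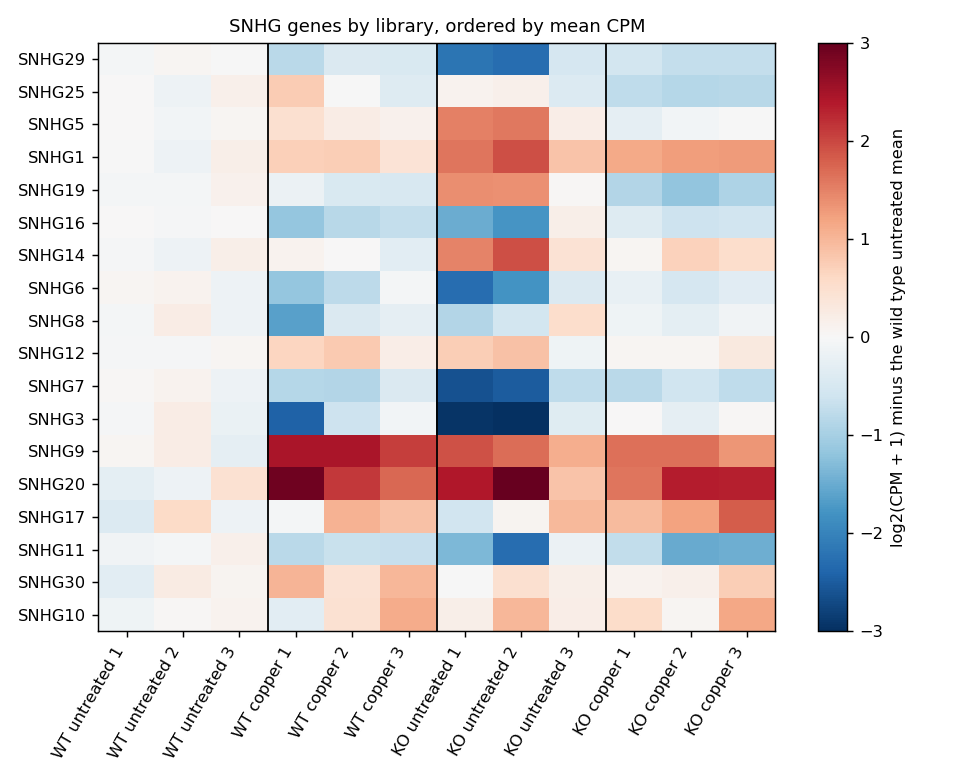
Heat map of the 18 tested SNHG genes (rows, by mean CPM) in the 12 libraries (columns): colour gives log2(CPM + 1) minus the wild type untreated mean, limited to the range from -3 to 3. KO untreated replicates 1 and 2 differ from replicate 3 in most rows, and SNHG9 and SNHG20 are above the wild type untreated mean in all 9 other libraries.

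The sense partner, whose symbol is the member's without -AS1, was tested together with the member for 79 of the 213 -AS1 genes. No source used here gives the strand setting of the counting, so reads of an -AS1 gene and of an overlapping sense gene cannot be told apart. With copper in wild type 9 of these 79 -AS1 genes and 17 of the 79 partners were called (14.9% of all genes tested were). How many pairs would be called together without any link was not tested in this or the other comparisons. Both were called for 4 pairs, 3 of them in the same direction, and 5 -AS1 genes were called without their partner. EMC3-AS1 (1.53) rose beside EMC3 (1.74), RASAL2-AS1 (2.09) beside RASAL2 (1.44) and ACTR3-AS1 (3.61) beside the actin-related protein gene ACTR3 (0.64). TBX2-AS1 fell (-1.26) while TBX2, a T-box transcription factor gene, rose (1.06 ± 0.27, adjusted p = 0.021). That call of TBX2-AS1 ended in 9 of the 12 fits that left out a library.

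With copper in KO cells 18 of the 79 -AS1 genes and 35 of the 79 partners were called (33.7% of all genes tested were). Both were called for 9 pairs, and 9 -AS1 genes were called without their partner. The 9 pairs had 6 in the same direction, among them TBX2-AS1 (-1.44) with TBX2 (-1.91), RNF157-AS1 (-1.89, and -1.27 with an adjusted p of 0.221 without the 3 libraries) with RNF157 (-2.11) and MYG1-AS1 (the ratio of 12.6 above) with MYG1 (1.03). Opposite were WAC-AS1 (-2.12) against WAC (0.60 ± 0.16, adjusted p = 0.013), GABPB1-AS1 (-1.18, and -0.48 with an adjusted p of 0.188 without the 3 libraries) against GABPB1 (1.90), and EHBP1-AS1 (2.59) against EHBP1 (-1.35 ± 0.30, adjusted p = 0.0050). EHBP1, an endocytic adaptor gene, was at 315, 397 and 174 CPM in KO untreated and at 94.4, 120 and 110 CPM in KO copper. In untreated KO against wild type 20 -AS1 genes and 28 partners were called (31.9% of all genes were), both for 8 pairs, 6 in the same direction. In copper 10 and 14 were called (13.8% of all genes were), both for 2 pairs, 1 of them in the same direction. Pearson's r between the log2 fold changes of the 79 pairs was 0.12 for copper in wild type and 0.21 for copper in KO, and 0.43 and 0.26 for KO against wild type without and with copper, as a description across gene pairs of the same libraries.

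**Figure D5:**
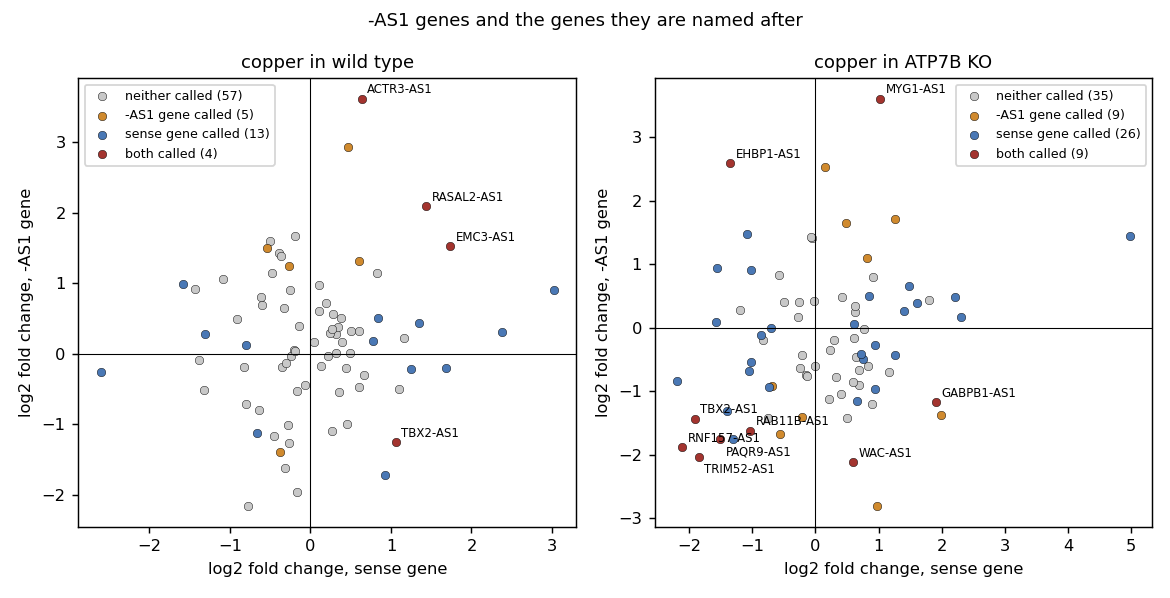
Log2 fold change with copper of 79 -AS1 genes (vertical axis) against that of the genes they are named after (horizontal axis), in wild type (left) and KO cells (right), coloured by which of the pair edgeR called. Pairs called in opposite directions are TBX2-AS1 on the left, and WAC-AS1, GABPB1-AS1 and EHBP1-AS1 on the right.

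Proteins of the bodies in which MALAT1 and NEAT1 reside were described from lists chosen by function, with earlier results of these data known. The naming rule takes the genes with the smallest adjusted p from each list. Of 26 nuclear speckle genes, all tested, 8 rose and none fell with copper in wild type (against 8.23% and 6.68% of all genes), and 12 rose and 1 fell in KO cells (against 15.2% and 18.5%). The same shares of all genes apply to the lists that follow. Their median log2 fold changes were 0.40 and 0.60, against -0.03 and 0.01 for all genes. The splicing regulator TRA2B rose by 0.97 ± 0.21 in wild type and 2.13 ± 0.22 in KO (adjusted p = 0.0095 and 4.20e-05), and LUC7L3 by 1.02 and 1.18. SRSF3 (1.36) and SRSF6 (1.10) rose in wild type, and SRSF7 (1.57) in KO cells. On leaving out the 3 libraries 19 of the 26 rose in wild type and 18 in KO, with 1 and none lower; of all genes 20.4% and 19.1% rose in that fit, and 19.6% and 20.5% fell.

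Of 29 tested paraspeckle genes 3 rose with copper in wild type (SFPQ 1.16, EWSR1 1.28, PSPC1 0.86) and HNRNPF fell (-0.87). In KO cells 5 rose and 4 fell, NONO among the latter (-1.13 ± 0.33, adjusted p = 0.020, but -0.16 without the 3 libraries). Leaving out the 3 libraries gave 14 higher and 5 lower of the 29 in wild type, and 11 higher and 4 lower in KO. Untreated KO against wild type had 12 higher and 3 lower (against 17.9% and 14.0% of all genes), with SFPQ at 1.96 ± 0.21 (adjusted p = 0.00013), CPSF7 at 1.43 and HNRNPM at 1.86, and 11 higher and 5 lower without the 3 libraries, with these at 1.54, 1.13 and 0.63.

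Of 19 nonsense-mediated decay genes 3 rose and none fell with copper in wild type, and 4 rose and 1 fell in KO (6 and 0, and 5 and 1, without the 3 libraries). Of 21 RNA exosome genes 1 rose in wild type (ZFC3H1, 1.61, which targets nuclear polyadenylated RNA to the exosome), and 6 rose and 3 fell in KO. Leaving out the 3 libraries, 8 of the 21 rose and 1 fell in either line. Of 16 snoRNP genes 3 rose in wild type and 2 rose and 3 fell in KO (4 and 1, and 3 and 1, without the 3 libraries), with NOP58, a core protein of box C/D snoRNPs, at 1.29 and 1.51.

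Among 34 lncRNA genes with other kinds of names 17 were tested, of which 4 rose and none fell with copper in wild type, and 7 rose and 1 fell in KO. Without the 3 libraries 20 were tested, of which 9 rose and 1 fell in wild type and 9 rose and 2 fell in KO. CYTOR and MIR4435-2HG are near-identical copies whose reads may be shared, so their separate counts are uncertain: CYTOR rose by 1.46 ± 0.20 and 2.40 ± 0.21 and MIR4435-2HG by 1.21 ± 0.18 and 0.90 ± 0.18. MIR22HG was at 0.281 to 1.05 CPM in wild type untreated and 5.87 to 12.6 CPM in copper (3.78 ± 0.56), and at 3.46 to 14.3 CPM and then 19.7 to 26.7 CPM in KO (1.73 ± 0.44). LUCAT1 was at 0.281 to 1.05 CPM and then 8.54 to 21.8 CPM in wild type (4.14 ± 0.67), and at 0, 0 and 3.66 CPM and then 14.6 to 20.5 CPM in KO (3.28 ± 0.66). Both were higher in every copper library of a line than in every untreated library of that line. So were 21.3% of all genes tested in wild type and 19.1% in KO, and both were picked after their values were seen.

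Among the 157 members that were not tested, some had a group at 0, and those named here were chosen after their values were seen. LINC00668 had 4.22, 3.13 and 3.37 CPM in wild type untreated and 1.60, 1.31 and 1.94 CPM in wild type copper, and had 0 counts in all 6 KO libraries, at least 6.79-fold lower untreated and at least 4.19-fold lower in copper. LINC01647 had 0 counts in all 6 untreated libraries and was at 0.775 to 1.74 CPM in wild type copper and 2.79 to 7.95 CPM in KO copper, at least 4.97-fold and 11.3-fold higher. LINC00520 had 0 counts in wild type untreated and was at 1.60, 2.18 and 6.20 CPM in wild type copper, at least 13.3-fold higher. In KO cells its ratio was 20.7 with a counting interval of 3.42 to 846.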

How the data were processed

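The authors' deposited files hold raw counts of reads per Ensembl gene in 12 libraries of QuantSeq 3′ mRNA sequencing, per the labels' protocols. STAR 2.3.0, HTSeq and hg19 stand in the submitters' processing notes. The annotation release, the strand setting and any filter were not given in the sources used here. Symbols came from a name table, and 98.9% of counts fell on IDs with a symbol. The members and gene lists were chosen with earlier results of these data known. Counts were fitted with edgeR 4.0.16 (robust quasi-likelihood, trimmed-mean (TMM) factors, filterByExpr, all 12 libraries, 4 group means), and p-values were adjusted by Benjamini-Hochberg over 11051 genes. The biological coefficient of variation was 29.1%. Log2 fold changes carry the fit's SE. Named members are MALAT1, NEAT1, LINC01996, the SNHG genes, the 10 highest by level, and up to 10 per direction and comparison by fold among calls whose replicates do not overlap (overlap not required for the interaction). Folds from 1 to 3 counts are ratios of pooled CPM with exact 95% counting intervals. Replicates differed beyond counting noise and none was a duplicate. The fit was tested on simulated data with the same spread in every group. That test cannot speak to calls that rest on KO untreated, whose replicates differed more. Alternatives were DESeq2 1.42.0, limma 3.58.1 voom, relative log expression (RLE) factors, other filters, the compared groups alone, a replicate block, left-out libraries, a 5 CPM threshold and a second name table.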

Additional observations from a re-analysis of the deposited data

Results flagged for a closer look

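By edgeR's test of the difference itself, the copper effect differed between ATP7B KO and wild type cells for 5 of 187 tested lncRNA genes. That is 2.67%, against 4.93% of all genes tested. The difference (KO minus wild type, log2) was 3.59 for EHBP1-AS1 (adjusted p = 0.0418) and -3.18 for FRY-AS1 (adjusted p = 0.038). It was -2.42 for LINC00667 (adjusted p = 0.0403), -2.39 for SNHG9 (adjusted p = 0.019) and -2.17 for WAC-AS1 (adjusted p = 0.0445). FRY-AS1 rose with copper in wild type and fell in KO cells. SNHG9 rose in wild type, and its KO libraries with and without copper overlapped. LINC00667 and WAC-AS1 had their highest levels in KO untreated replicates 1 and 2. Without the 3 libraries that stand apart the difference was 2.71 for EHBP1-AS1 and -1.80 for SNHG9. It was -2.0 for FRY-AS1, -1.01 for LINC00667 and -0.92 for WAC-AS1. Each of the 5 calls ended in 9 to 11 of the 12 fits that left out a library, with adjusted p up to 0.122.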

How the results depend on the processing

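Counts of called members moved by over 1.5 times under several settings. Fits that left out 1 library tested 209 to 220 members. The share of all genes called is not set beside any count in this section, for these fits or for the other settings. The counts are therefore no result about lncRNA genes. Leaving out 1 library at a time gave 14 to 46 higher and 2 to 16 lower for copper in wild type, 22 to 49 and 23 to 55 for copper in KO, 24 to 65 and 10 to 46 for KO against wild type untreated, 4 to 20 and 8 to 44 in copper, and 0 to 31 and 0 to 62 for the interaction. Without the 3 libraries that stand apart the counts were 60 and 25, 45 and 44, and 23 and 49 for copper in wild type, copper in KO and the lines in copper. With no filter on low counts they were 15 lower (copper in wild type), 40 and 47 (copper in KO), 31 lower (untreated lines) and 9 and 28 (interaction), with more genes tested. The compared groups alone gave 19 lower, 14 and 17, 21 and 8, and 15 higher in the 4 comparisons of groups. The replicate block gave 4 lower for copper in wild type, 13 lower in copper, and 0 and 1 for the interaction. The libraries share only a replicate number: 2 of 18 same-number correlations were over 0.1, and 4 of 12 libraries correlated best with their own number. The 5 CPM threshold, with fewer members, gave 11 higher for copper in KO, 3 higher in copper and 0 for the interaction. For the interaction DESeq2 gave 4 and 21, voom 0 and 1, RLE factors 7 lower and the 1 CPM filter 7 lower; voom gave 15 higher in copper. Where not named, the cause was not tested. Of single values 1648 kept direction and side of the threshold, 235 lost the call and 14 gained one. Leaving out 1 library reversed ATP7B between the lines in copper (range -0.11 to 0.31, below 0 without KO copper replicate 3) and the interactions of MALAT1 (-0.92 to 0.17) and NEAT1 (-1.06 to 0.45), both above 0 without KO untreated replicate 2, and none of these was called. At these depths a member at 0 may lie under 0.783 to 3.07 CPM.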
